A study of Rattus norvegicus with 10 samples.

Results

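Genes induced by interferon and genes that prepare peptides for major histocompatibility complex (MHC) class I molecules were followed in 5 rat mammary tumours, each measured once as a needle biopsy and once as the total tumour. The 35 genes listed comprise 28 interferon-induced genes and 7 class I processing genes, B2m, Tap1, Tap2, Tapbp, Psmb8, Psmb9 and Psmb10. A gene was read by a probe set (the group of short DNA probes that reports 1 transcript) annotated to it alone, and where it had several, by the probe set with the highest mean log2 signal over all 10 arrays. In this way 33 of the 35 were measured, 26 interferon-induced and 7 of class I processing, out of 14217 genes with a probe set of their own. All 33 passed the limit on dim signals, a mean log2 signal of 5.15, as did 10793 genes in all. No probe set was listed for Gbp5 or Xaf1 alone, so both are not analysed here, and the RNA sensor gene Ddx58 (RIG-I) was found under its present RefSeq symbol Rig1.

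The total tumours were collected when the rats were killed at an age of 19 weeks, and the biopsies were cores of 0.7 cm by 2.5 mm taken with a needle at 12 weeks, when the tumour measured 2 cm3. Both came from female Sprague-Dawley rats, an outbred strain, that had received 7,12-dimethylbenz(a)anthracene (DMBA, a carcinogenic hydrocarbon) once by mouth at 100 mg/kg, and neither had another treatment. The tumours were all of Bloom-Richardson grade II and bear the names 31D3, 32D1, 37I1, 50I1 and 52I4. They gave 5 total tumours and 5 biopsies, each on its own Affymetrix rat genome array. The comparison asked how a tumour at the end differed from its own early biopsy. The labels do not say whether each tumour came from a rat of its own. The p-values for total tumour against biopsy thus measure the spread of pair differences over tumours, which need not be that over rats. Age, tumour size, sampling method and array numbering go with the group and cannot be told apart from it.

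Log2 signals ran between 2.34 and 14.26, array medians between 5.99 and 6.11, and correlations between arrays over all probe sets between 0.952 and 0.989. All 12 markers of mammary epithelium were measured above the limit, and their mean log2 signal per array lay between 10.62 and 11.21. In a piece of tissue, fewer cells of a type and less RNA per cell cannot be told apart. With 10 arrays, their number limits precision.

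Type I interferons bind a receptor on nearly every cell, and the kinases JAK1 and TYK2 then activate a complex that holds STAT2 and IRF9 and binds the interferon-stimulated response element (ISRE) of antiviral genes. Interferon gamma, made mainly by T cells and natural killer (NK) cells, acts on gamma-activated sites (GAS) and induces IRF1, guanylate-binding proteins and much of class I processing. In that process the immunoproteasome cuts proteins into peptides, the transporter TAP carries them into the endoplasmic reticulum, and tapasin holds them to class I molecules, which carry them with beta-2-microglobulin to T cells.

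Many promoters of the members held short stretches that resemble these elements, which the choice of genes had not used. RefSeq windows from 250 bases before to 50 bases after the start of the gene, build GRCr8, were at hand for 29 of the 35 listed genes. They were searched for the ISRE core GAAANNGAAA, which reads TTTCNNTTTC on the other strand, and for the GAS core TTCNNNGAA, which reads the same on both. An ISRE core lay in 15 of 22 interferon-induced promoters and in 6 of 7 class I promoters, in all 72.4%, against 3.92% of all 33469 rat promoters. A GAS core lay in 8 of 29, or 27.6%, against 8.87% of all promoters. By group it lay in 7 of 22 interferon-induced promoters, but in only 1 of 7 class I promoters, that of Psmb8. Among 42 promoters of other interferon-induced genes, 21 held an ISRE core, among 19 of other class I genes 2 did (10.5%), and among 13 of the constitutive proteasome 2 did. A match is only a run of letters, and it does not show that a factor binds there.

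Stretches with an ISRE core are shown for members described below, because this core was more frequent than the GAS core in each gene group. No other motif was searched. Capitals mark the ISRE core, with 20 bases on either side. Rsad2 is given at chr6:48788238-48788287 (minus strand), Irf7 at chr1:205800063-205800112 (minus), Gbp2 at chr2:234005676-234005725 (plus) and Lgals3bp at chr10:104127869-104127918 (minus). The class I genes follow, with B2m at chr3:129549160-129549209 (plus), Tap1 at chr20:4668635-4668684 (minus), Tapbp at chr20:4967868-4967923 (minus), Psmb8 at chr20:4657006-4657055 (minus) and Psmb10 at chr19:50743280-50743385 (minus).
Rsad2: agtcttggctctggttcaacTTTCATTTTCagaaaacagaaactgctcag
Irf7: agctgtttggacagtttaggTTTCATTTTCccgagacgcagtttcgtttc
Gbp2: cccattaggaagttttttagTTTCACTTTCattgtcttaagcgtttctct
Lgals3bp: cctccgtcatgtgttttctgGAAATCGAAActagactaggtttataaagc
B2m: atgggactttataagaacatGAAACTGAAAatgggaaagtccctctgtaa
Tap1: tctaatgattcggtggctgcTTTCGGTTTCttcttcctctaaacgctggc
Tapbp: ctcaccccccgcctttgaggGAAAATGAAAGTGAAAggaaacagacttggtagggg
Psmb8: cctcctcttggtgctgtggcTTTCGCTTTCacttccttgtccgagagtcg
Psmb10: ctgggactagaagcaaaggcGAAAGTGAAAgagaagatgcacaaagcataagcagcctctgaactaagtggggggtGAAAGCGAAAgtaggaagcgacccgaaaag

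The matches began 147 bases upstream of the start used for the window in Rsad2, 69 in Irf7, 31 in Gbp2, 150 in B2m and 121 in Tap1. Tapbp and Psmb10 held 2 each, those of Tapbp overlapping. The transcription factor genes Irf1 and Irf8 held no ISRE core but a GAS core, 1 in Irf1 (chr10:38417773-38417821, plus) and 2 in Irf8 (chr19:65699084-65699151, plus). Capitals mark the GAS core in these.
Irf1: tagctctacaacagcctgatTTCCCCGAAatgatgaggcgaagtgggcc
Irf8: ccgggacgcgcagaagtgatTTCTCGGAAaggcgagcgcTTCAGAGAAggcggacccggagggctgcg

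The starts used for the windows of Tap1 and Psmb9 lie 457 bases apart on opposite strands of chromosome 20. The windows of both genes share 44 bases. The outer bounds of Psmb9 begin at 4668952, closer to Tap1 than the start used for its window. Psmb9 had no match in its own window, and the ISRE core in capitals lies in the 250 bases upstream of Tap1 (chr20:4668544-4668793, minus), between the starts of both genes.
Tap1: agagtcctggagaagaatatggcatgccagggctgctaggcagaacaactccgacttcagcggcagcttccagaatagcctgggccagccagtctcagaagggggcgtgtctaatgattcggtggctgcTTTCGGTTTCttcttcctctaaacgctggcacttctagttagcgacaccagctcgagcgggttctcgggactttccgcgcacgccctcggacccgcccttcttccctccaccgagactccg

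**Figure D1:**
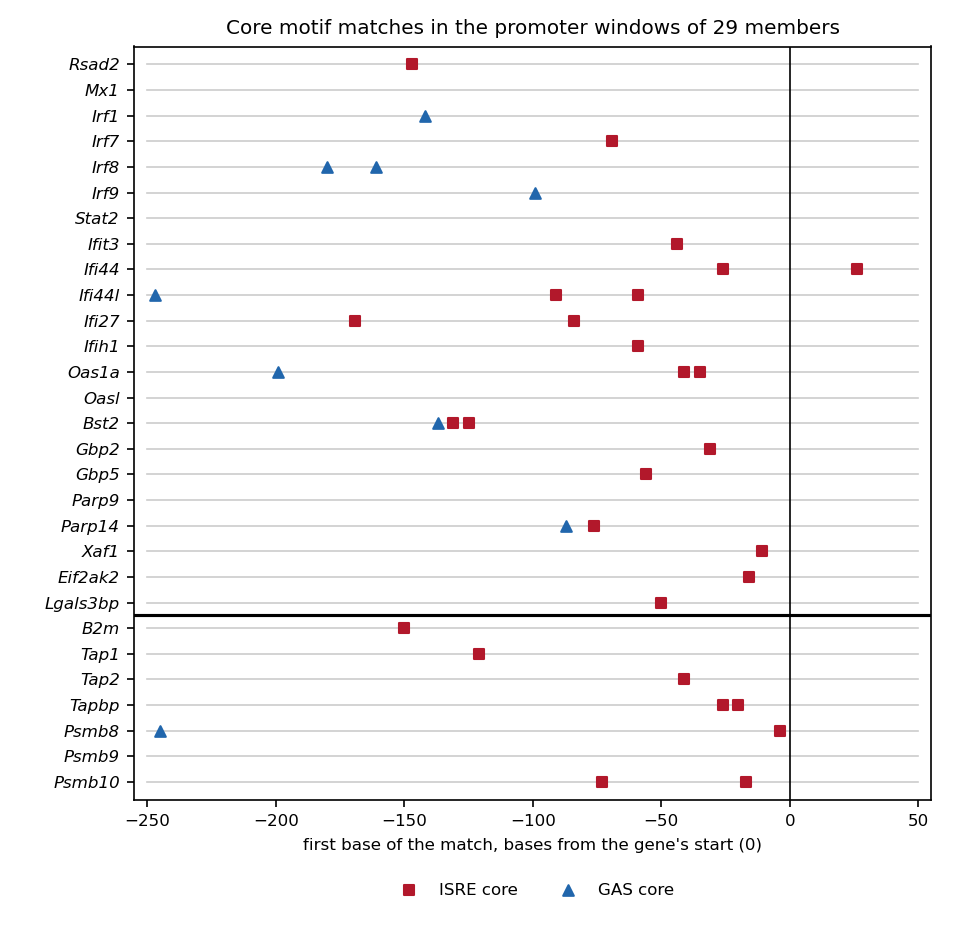
Positions of the ISRE core (squares) and the GAS core (triangles) in the promoter windows of 29 listed genes. Shown is the distance in bases of the first base of a match from the start used for the window (0). Class I processing genes lie under the thick line. An ISRE core appears in 6 of the 7 class I windows and in 15 of the 22 interferon-induced windows.

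Total tumours against biopsies gave no call for any member. With an adjusted p under 0.05 in limma, fitted with the tumour as a block, 0 of 18625 probe sets were called (0%), the 33 members among them. The lowest adjusted p of a member was 0.751, for Rsad2. Rsad2 was also the only member with an unadjusted p under 0.05 in limma, 1 of 33, where 4.17% of all genes had one. That count was 4 without tumour 31D3 and 3 without 37I1. Mean differences, total tumour minus biopsy, ran from -0.28 for Irf8 to 0.70 for Rsad2 on the log2 scale. They were above 0 for 27 members and below 0 for 6, against 51.2% of all genes above 0. The median was 0.15 over the 26 interferon-induced members and 0.22 over the 7 class I members, against 0.00393 over all genes. Without tumour 37I1 the interferon-induced median was -0.01 and the class I median 0.15.

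For no member were all 5 total tumours above or all 5 below all 5 biopsies. The share of all genes with such a gap was not counted, so nothing particular to the members is read from this. Rsad2, Tapbp and Psmb8 were higher in the total tumour in 5 of 5 pairs, 3 of 33 members where 2.41% of all genes were. Members of one list are read in the same cells, so their counts are not counts of independent events.

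The pattern lay in the separate tumours rather than in the mean. In tumour 37I1 all 26 interferon-induced members (25 with median centring) were higher in the total tumour than in the biopsy, with a median difference of 0.89, and 12 of them differed by more than 1, which is over 2-fold. In 31D3 only 7 of 26 were higher (median -0.27) and in 52I4 also 7 (median -0.16), while 32D1 had 14 (median 0.02) and 50I1 had 17 (median 0.15). Of all genes, 49.6% were higher in 37I1, 50.4% in 31D3, 50.1% in 52I4, 48.6% in 32D1 and 49.1% in 50I1, and 6.51% differed by more than 1 in 37I1. The 7 class I members did not follow the same order. All 7 were higher in 31D3 (median 0.36) and in 37I1 (median 0.37), 6 in 32D1 (0.11), 4 in 52I4 (0.02) and 2 in 50I1 (-0.02), and 0 of 7 differed by more than 1 in 37I1. The values near 0 are not settled in direction, since in 50I1 median centring of the arrays made 5 of 7 higher (median 0.07), and in 52I4 the mean of all probe sets of a gene made the median -0.06. The median of the interferon-induced members minus that of the class I members was -0.63 in 31D3, -0.09 in 32D1, 0.52 in 37I1, 0.17 in 50I1 and -0.18 in 52I4. Each pair is 1 array against 1 array, so a difference within a tumour has no replicate check and was not tested. The pairings of 31D3 and 50I1 rest on the tumour names alone, since each of these total tumours correlated higher with the biopsy of another tumour.

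**Figure D2:**
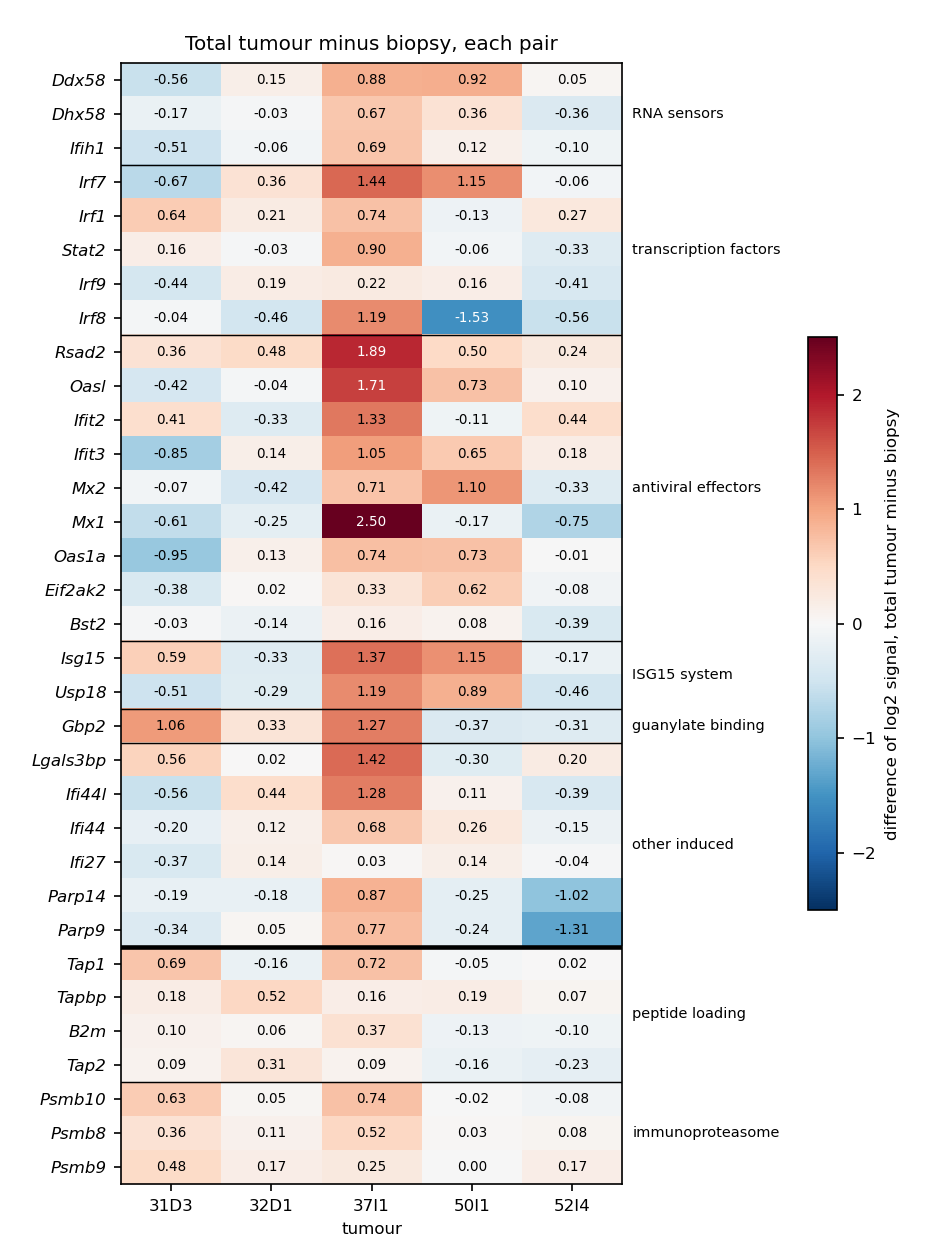
Difference of log2 signal, total tumour minus biopsy, of each of the 33 measured members (rows, by role, class I processing under the thick line) in each of the 5 tumours (columns), with red for higher and blue for lower in the total tumour. The column of 37I1 is red for all 26 interferon-induced members, up to 2.50 for Mx1, and the column of 31D3 is red for all 7 class I members and for 7 interferon-induced ones.

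Among the RNA sensors, which detect viral RNA in the cytoplasm, Ddx58, Ifih1 and its relative Dhx58 were all higher in total tumour 37I1, by 0.88, 0.69 and 0.67, and all lower in 31D3, by -0.56, -0.51 and -0.17. In 50I1 all 3 were again higher, with Ddx58 at 0.92. Their mean differences over 5 tumours were 0.29, 0.03 and 0.09. That of Ddx58 was 0.14 without 37I1, 0.13 without 50I1 and 0.50 without 31D3.

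The 5 transcription factors were all higher in 37I1 and split in the other tumours. Irf7, the factor that amplifies the type I response, had log2 signals of 9.01, 11.19, 12.02, 10.32 and 9.48 in the total tumours 31D3, 32D1, 37I1, 50I1 and 52I4, against 9.68, 10.83, 10.57, 9.17 and 9.54 in the biopsies in the same order, which further lists of 5 values follow too. The groups overlapped, with the highest total tumour in 37I1 and the lowest in 31D3, and pairs differed by 1.44 in 37I1, 1.15 in 50I1 and -0.67 in 31D3. Its mean difference was 0.44 (SE 0.316; adjusted p = 0.873 in limma), 0.19 without 37I1, 0.27 without 50I1 and 0.72 without 31D3.

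Irf1, the factor induced most directly by interferon gamma, went otherwise than Irf7 in 31D3. Its log2 signals were 10.38, 9.83, 9.77, 9.54 and 9.50 in the total tumours, against 9.74, 9.63, 9.04, 9.67 and 9.23 in the biopsies. Here total tumour 31D3 was the highest of all 10 arrays, and the pair 31D3 differed by 0.64, where Irf7 had -0.67. In 37I1 both were higher, Irf1 by 0.74 and Irf7 by 1.44. The mean difference of Irf1 was 0.35 (SE 0.147; adjusted p = 0.826 in limma), with 4 of 5 pairs higher.

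Stat2, a factor of the type I pathway, had log2 signals of 9.35, 9.99, 10.12, 9.26 and 8.83 in the total tumours, against 9.19, 10.02, 9.22, 9.32 and 9.16 in the biopsies. The pair 37I1 stood out with 0.90 while the other 4 lay between -0.33 and 0.16, and the mean difference was 0.13 (SE 0.182; adjusted p = 0.940 in limma), or -0.07 without 37I1. A second probe set of Stat2 gave -0.02, the only case in 8 members with several probe sets where the sign differed. Irf9, which binds DNA in the same complex, differed by -0.05, with pairs between -0.44 and 0.22.

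Irf8, a factor of macrophages, dendritic cells and B cells, had log2 signals of 9.11, 7.66, 8.30, 6.96 and 7.10 in the total tumours, against 9.15, 8.12, 7.11, 8.48 and 7.66 in the biopsies. Both 31D3 arrays were high, biopsy 37I1 was the lowest biopsy and total tumour 50I1 the lowest total tumour, so the pairs differed by 1.19 in 37I1 and -1.53 in 50I1. Its mean difference was -0.28 (SE 0.356; adjusted p = 0.929 in limma), and 0.03 without 50I1.

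The antiviral effectors act on viral RNA, protein synthesis or particles. Rsad2 encodes viperin, which makes a chain-terminating nucleotide, and its promoter carries the ISRE core shown above. Log2 signals of Rsad2 were 7.71, 9.09, 10.25, 7.80 and 7.09 in the total tumours, against 7.35, 8.60, 8.37, 7.30 and 6.85 in the biopsies. The total tumour was higher in each pair, by 0.24 to 0.50 in 4 of them and by 1.89 in 37I1, although the groups overlapped. The means were 8.39 ± 1.27 and 7.69 ± 0.75 (SD, n = 5 each) in total tumours and biopsies, a difference of 0.70 (SE 0.251) or 1.62-fold. Without 37I1 the difference was 0.40.

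Mx1, a dynamin-like GTPase that blocks viruses, showed the widest pair of all members. Its log2 signals were 7.47, 9.03, 10.77, 7.73 and 7.06 in the total tumours, against 8.09, 9.29, 8.27, 7.90 and 7.81 in the biopsies. Only 37I1 was higher in the total tumour, by 2.50, and the other 4 pairs lay between -0.75 and -0.17. The mean difference of 0.14 (SE 0.478; adjusted p = 0.976 in limma) became -0.44 without 37I1 and -0.09 with array weights.

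Mx2, its paralog, had log2 signals of 6.88, 7.90, 10.55, 8.04 and 6.64 in the total tumours, against 6.95, 8.32, 9.84, 6.94 and 6.96 in the biopsies. On this probe set both samples of 37I1 were far above the rest, unlike those of Mx1, where only the total tumour was. The mean difference was 0.20 (SE 0.250; adjusted p = 0.928 in limma), or -0.03 without 50I1. A second Mx2 probe set gave a mean of 0.87, with 4.49 in 37I1 where the one used gave 0.71, so the size of that pair depends on the probe set, and cross-reading between these related genes was not tested.

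**Figure D3:**
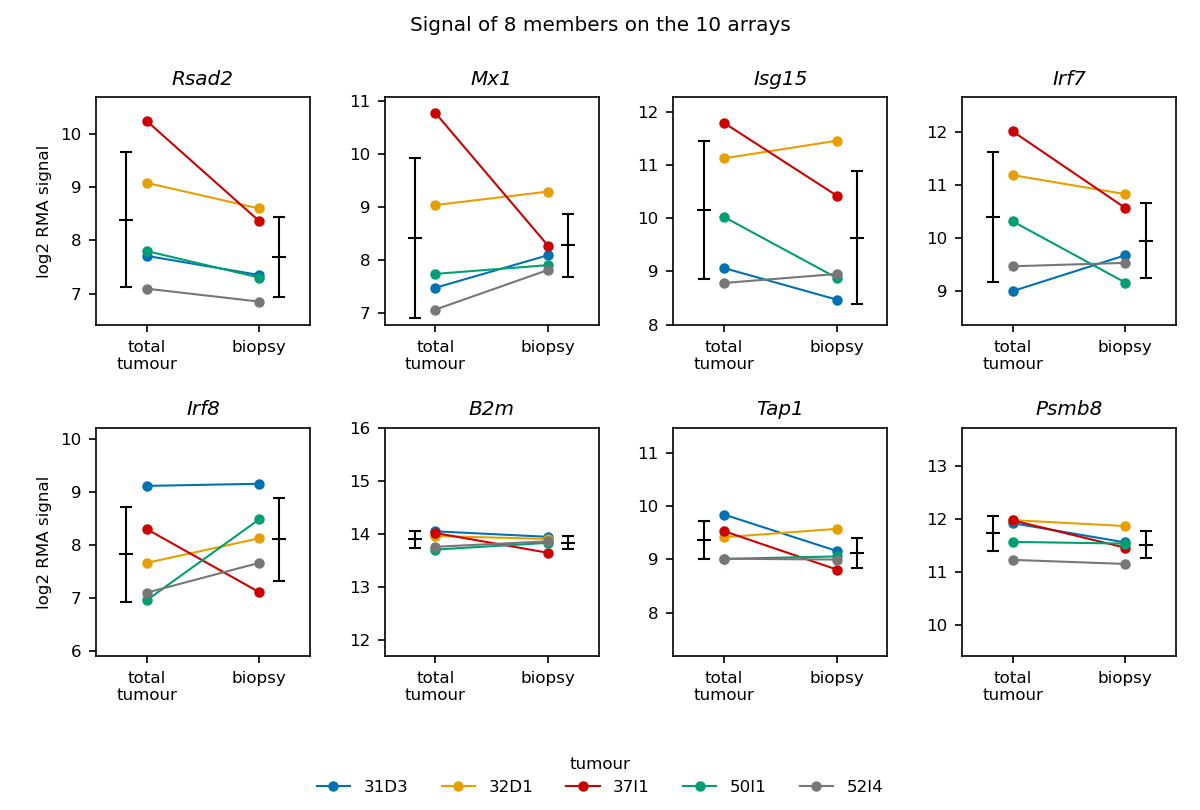
Log2 RMA signal of 8 members in total tumours (left) and biopsies (right), 1 line per tumour, with black bars for mean ± SD (n = 5) and the same span of the vertical axis in each panel. Lines of 37I1 drop steeply towards the biopsy in Rsad2, Mx1, Isg15, Irf7 and Irf8, while those of B2m, read near the top of the signal range, span 0.40 over all 10 arrays.

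Oasl, an oligoadenylate synthetase-like protein, had log2 signals of 7.39, 8.52, 9.67, 8.05 and 7.64 in the total tumours, against 7.80, 8.56, 7.96, 7.32 and 7.54 in the biopsies. The pair 37I1 differed by 1.71 and 50I1 by 0.73, and the others lay between -0.42 and 0.10. Its mean difference was 0.42 (SE 0.304; adjusted p = 0.876 in limma), or 0.09 without 37I1 and 0.62 without 31D3. The other effectors had mean differences of 0.35 for Ifit2 and 0.23 for Ifit3, which bind viral RNA, 0.13 for Oas1a, which activates RNase L, 0.10 for the kinase gene Eif2ak2 (PKR) and -0.06 for Bst2 (tetherin). Without 37I1 Ifit2 differed by 0.10 and Ifit3 by 0.03, and Ifit3 differed by 0.13 without 50I1 and by 0.50 without 31D3. All 9 effectors were higher in 37I1, 7 in 50I1, 4 each in 32D1 and 52I4 and 2 in 31D3.

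Isg15, a ubiquitin-like protein that is attached to other proteins, had log2 signals of 9.06, 11.13, 11.80, 10.03 and 8.78 in the total tumours, against 8.47, 11.46, 10.43, 8.88 and 8.95 in the biopsies. Samples of 32D1 and 37I1 were the highest in both groups, and the pairs differed by 1.37 in 37I1, 1.15 in 50I1 and 0.59 in 31D3, with the other two below 0. The mean difference was 0.52 (SE 0.280; adjusted p = 0.846 in limma), and 0.31 without 37I1. Usp18, which removes ISG15 and damps the receptor, differed by 0.16 on average, by 1.19 in 37I1, 0.89 in 50I1 and -0.51 in 31D3.

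The enzymes that attach ISG15 are not members. Uba7, the activating enzyme, was higher in 5 of 5 pairs, by 0.03 to 0.67 (mean 0.42, SE 0.126; adjusted p = 0.663 in limma), and its other probe sets gave mean differences of 0.43 and 0.13, the last from signals that averaged 5.08, too dim for the limit. Ube2l6, the conjugating enzyme, was higher by 0.20 to 0.63 in 5 of 5 pairs (mean 0.44, SE 0.104; adjusted p = 0.642 in limma). They are named for the smallest p values of their list, a choice that favours such agreement.

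Gbp2, a guanylate-binding protein that responds strongly to interferon gamma, had log2 signals of 10.24, 9.58, 9.73, 8.79 and 8.45 in the total tumours, against 9.17, 9.25, 8.46, 9.16 and 8.77 in the biopsies. Total tumour 31D3 was the highest array, and the pairs 31D3 and 37I1 differed by 1.06 and 1.27 while 50I1 and 52I4 were below 0. The mean difference was 0.40 (SE 0.279; adjusted p = 0.873 in limma), or 0.18 without 37I1 and 0.23 without 31D3.

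Lgals3bp, a secreted glycoprotein that binds galectins, had log2 signals of 11.00, 11.46, 11.42, 10.49 and 10.34 in the total tumours, against 10.44, 11.44, 10.004, 10.79 and 10.14 in the biopsies. It was higher by 1.42 in 37I1 and by 0.56 in 31D3, and the other pairs lay between -0.30 and 0.20. Its mean difference was 0.38 (SE 0.245; adjusted p = 0.873 in limma), or 0.12 without 37I1. Of the remaining induced genes, Ifi44 differed by 0.14, Ifi44l by 0.17 and Ifi27 by -0.02. The value of Ifi44 was 0.0069 without 37I1, 0.23 without 31D3 and 0.22 without 52I4. Parp9 and Parp14, ADP-ribosyltransferase family members, differed by -0.21 and -0.15, and both had their highest array in biopsy 52I4, at 11.30 for Parp9 and 9.90 for Parp14.

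Pair differences of the class I genes lay between -0.23 and 0.74, and those of the interferon-induced genes between -1.53 and 2.50. B2m, the light chain of every class I molecule, had log2 signals of 14.05, 13.96, 14.02, 13.71 and 13.76 in the total tumours, against 13.95, 13.91, 13.65, 13.84 and 13.86 in the biopsies. Its 10 values spanned 0.40, and its mean difference was 0.06 (SE 0.107; adjusted p = 0.951 in limma), or -0.02 without 37I1. These signals lie near 14.26, the highest on any array, and whether they are compressed there was not tested. A second, dimmer B2m probe set, with a mean log2 signal of 12.09, gave a difference of 0.26, with 0.92 in 37I1 where the one used gave 0.37.

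Tap1, a chain of the peptide transporter, had log2 signals of 9.85, 9.42, 9.53, 9.01 and 9.01 in the total tumours, against 9.16, 9.58, 8.81, 9.06 and 9.00 in the biopsies. The pairs 31D3 and 37I1 differed by 0.69 and 0.72 and the other 3 lay between -0.16 and 0.02. The mean difference was 0.24 (SE 0.170; adjusted p = 0.873 in limma), or 0.12 without 37I1 and 0.13 without 31D3. A second Tap1 probe set gave 0.05. Tap2, the other chain, differed by 0.02, with pairs between -0.23 and 0.31, so the chains did not move by the same amount in 31D3, where Tap2 had 0.09.

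Tapbp encodes tapasin. Its log2 signals were 9.72, 10.26, 10.01, 9.48 and 9.00 in the total tumours, against 9.54, 9.73, 9.84, 9.30 and 8.93 in the biopsies. The total tumour was higher in 5 of 5 pairs, by 0.07 to 0.52, while the tumours kept nearly the same order at both moments and the groups overlapped. The mean difference was 0.22 (SE 0.101; adjusted p = 0.838 in limma), or 0.15 without 32D1.

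The immunoproteasome subunits replace the catalytic subunits Psmb5, Psmb6 and Psmb7 of the constitutive proteasome. Psmb8 had log2 signals of 11.93, 11.98, 11.98, 11.57 and 11.23 in the total tumours, against 11.56, 11.87, 11.46, 11.54 and 11.16 in the biopsies. It was higher in 5 of 5 pairs, most in 37I1 (0.52) and 31D3 (0.36), with a mean of 0.22 (SE 0.109; adjusted p = 0.846 in limma), or 0.15 without 37I1. In 37I1 Psmb5, the subunit that Psmb8 replaces, had -0.20.

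Psmb10 had log2 signals of 10.01, 9.93, 9.74, 9.62 and 9.39 in the total tumours, against 9.38, 9.88, 9.00, 9.64 and 9.47 in the biopsies. Pairs differed by 0.63 in 31D3 and 0.74 in 37I1, and by -0.08 to 0.05 in the other 3, with a mean of 0.26 (SE 0.159; adjusted p = 0.855 in limma), or 0.15 without 37I1 and 0.17 without 31D3. Psmb7, which Psmb10 replaces, had 0.43 in 31D3 and -0.07 in 37I1. Psmb9 differed by 0.21, with 4 of 5 pairs higher, and the probe set of its counterpart Psmb6 is shared with another gene and was not used. Over the 13 measured constitutive subunits the median difference was 0.22 in 31D3, 0.02 in 32D1, -0.07 in 37I1, 0.09 in 50I1 and 0.17 in 52I4, with 3 of 13 higher in 37I1. Psma1 and Psma2, subunits of the outer rings, differed by 0.14 and 0.16 on average, and 0 of the 13 passed the test.

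Set side by side, the tumours differed in which members were higher. In 37I1 both groups were higher in the total tumour, the interferon-induced genes by more. In 31D3 all 7 class I genes were higher, and so were 7 interferon-induced ones, Gbp2 (1.06), Irf1 (0.64), Isg15 (0.59), Lgals3bp (0.56), Ifit2 (0.41), Rsad2 (0.36) and Stat2 (0.16). The other 19 were lower there, furthest Oas1a (-0.95), Ifit3 (-0.85), Irf7 (-0.67) and Mx1 (-0.61), so antiviral genes stood on both sides.

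In 50I1 Isg15, Irf7 and Mx2 were higher by 1.15, 1.15 and 1.10, while Gbp2 and Irf8 were lower, by -0.37 and -1.53, and the 7 class I genes lay between -0.16 and 0.19. In 32D1 the 26 interferon-induced genes lay between -0.46 for Irf8 and 0.48 for Rsad2, and the class I genes between -0.16 for Tap1 and 0.52 for Tapbp. In 52I4 Parp9 and Parp14 were lower by -1.31 and -1.02, the other interferon-induced genes lay between -0.75 for Mx1 and 0.44 for Ifit2, and the class I genes between -0.23 and 0.17.

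Markers of leukocytes and stroma also differed within these pairs. In 37I1 all 20 T and NK cell markers and all 15 macrophage markers were higher in the total tumour, with medians of 1.64 and 1.77, and 10 of 11 fibroblast markers, with a median of 1.91. The mean log2 signal of the T and NK cell list was 6.63 in total tumour 37I1 and 4.99 in its biopsy, that of the macrophage list 9.86 and 8.17, and that of the fibroblast list 9.70 and 7.68. For each of these lists biopsy 37I1 was the lowest of all 10 arrays.

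In 31D3 the T and NK cell markers were higher too, 20 of 20 with a median of 1.62, at a mean of 8.73 in the total tumour against 6.78 in the biopsy, and so were the 15 macrophage markers (median 0.57). In 50I1 they were lower, with 2 of 20 T and NK cell markers and 1 of 15 macrophage markers higher and medians of -1.35 and -1.49. Across all arrays the T and NK cell list ranged from 5.78 to 8.73 in total tumours and from 4.99 to 6.96 in biopsies, with 3 of its 20 markers under the limit on average. In 52I4 and 32D1 the medians of that list were -0.70 and -0.26. The fibroblast markers were higher in 52I4, 11 of 11 with a median of 1.27, where the interferon-induced median was -0.16, and in 31D3, 11 of 11 with a median of 0.79. They were mostly lower in 50I1, with 1 of 11 higher (median -1.15), and in 32D1, with 2 of 11 higher (median -0.41). The part of these cells in the interferon-induced and class I values was not tested.

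**Figure D4:**
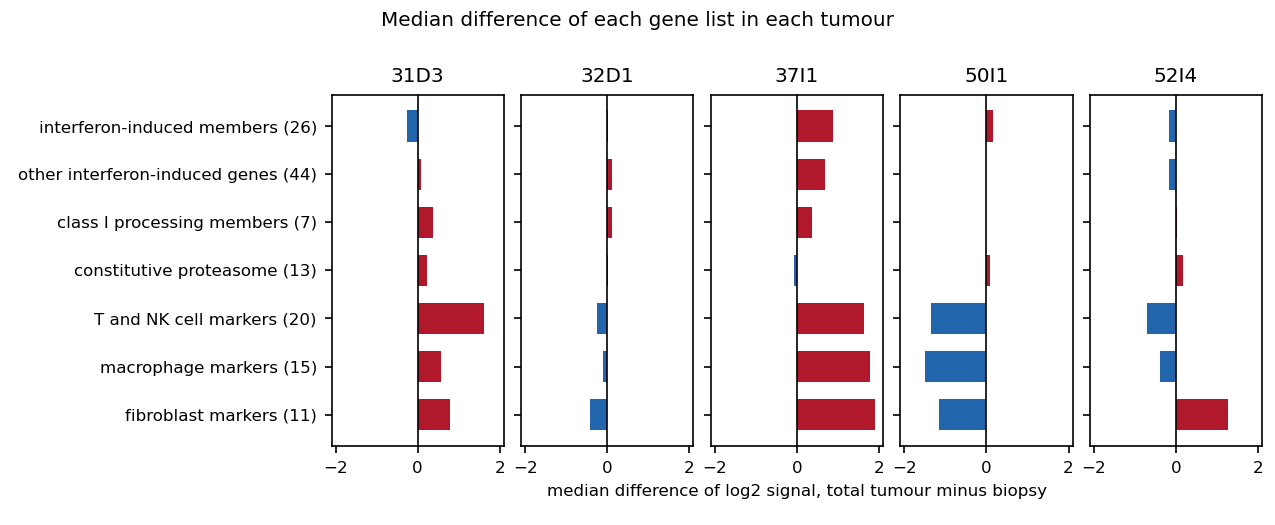
Median difference of log2 signal, total tumour minus biopsy, of 7 gene lists in each of the 5 tumours, with the number of measured genes in brackets and bars in red for above and blue for below 0. The bars of the interferon-induced and class I members point the same way in 37I1 and opposite ways in 31D3, where the T and NK cell markers stand at 1.62, while in 50I1 the T and NK cell and macrophage markers are below -1 and the interferon-induced members at 0.15.

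The level of the members differed more between tumours than between moments. The mean log2 signal of the 26 interferon-induced members was 8.56, 9.45, 10.04, 8.84 and 8.38 in the total tumours, against 8.71, 9.44, 9.04, 8.59 and 8.60 in the biopsies. Thus 37I1 led the total tumours, 32D1 led the biopsies, and 52I4 was low at both moments. The 7 class I members averaged 11.07, 11.11, 10.92, 10.61 and 10.45 in the total tumours, against 10.71, 10.96, 10.52, 10.63 and 10.47 in the biopsies, and here 32D1 led both groups and 52I4 was the lowest in both.

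Gene by gene, 37I1 was the highest total tumour for 19 of 26 interferon-induced members and for 0 of 7 class I members, against 23.5% of all genes. Class I members had their highest total tumour in 32D1 (4 of 7) or 31D3 (3 of 7). Among the biopsies 32D1 was the highest for 17 of 26 and 5 of 7, against 24% of all genes.

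The tumour term of the same limma fit asks whether tumours differ by more than the 2 samples of a tumour do. This test was added after the values had been seen. At an unadjusted p under 0.05 it took 16 of 33 members, 12 of 26 and 4 of 7, against 10.1% of all genes, and without tumour 32D1 it took 7. After adjustment 0 members passed, with a lowest adjusted p of 0.159 for Mx2, and over all probe sets 16 passed (0.0859%). Tumours accounted for a median of 74.4% of the sum of squares of a member, the moment for 4.32% and the remainder for 20.5%, against 52.9%, 5.15% and 36.0% over all genes. With 5 tumours and 2 moments, a larger tumour share arises even without an effect, so the shares are to be read against those of all genes. The tumour share was 93.9% for Mx2, 88.3% for Tapbp and 86.7% for Isg15, and 13.5% for Parp14 and 19.3% for Parp9. The values of Mx2 hold for the probe set used, since its second one differed by 4.49 between the samples of 37I1.

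Of the ligands, receptors and kinases upstream, 16 of 21 were measured, 14 were tested and 0 passed. Ifng lay under the limit on all 10 arrays, between 2.95 and 3.89 in the total tumours and between 2.92 and 3.14 in the biopsies, and so did Ifnb1. Irf3, the factor that starts interferon synthesis, differed by -0.37 (SE 0.232; adjusted p = 0.864 in limma), and Socs3, a feedback inhibitor of JAK kinases, by 0.39 (SE 0.198; adjusted p = 0.846 in limma), with 1.09 in 31D3.

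Of 56 other interferon-induced genes, 44 were measured and 42 tested. None passed, 3 had an unadjusted p under 0.05 in limma where 4.17% of all genes had one, and 34 were higher and 10 lower on average. In 37I1 40 of the 44 were higher (median 0.68), against 27 in 31D3 (0.09), 26 in 32D1 (0.11), 22 in 50I1 (0.00) and 13 in 52I4 (-0.17). Cxcl10, a chemokine that draws T cells through CXCR3, had log2 signals of 8.48, 6.49, 6.30, 6.33 and 5.99 in the total tumours, against 6.23, 7.49, 5.25, 7.10 and 6.91 in the biopsies. Total tumour 31D3 was the highest array, the pair 31D3 differed by 2.25 and 37I1 by 1.05, and the other 3 were below 0. The related chemokines Cxcl9 and Cxcl11, named after their values were seen, differed by 2.73 and 2.31 in 31D3 and by 1.23 and 1.48 in 37I1.

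Other class I genes gave 16 measured of 22, with 14 tested, 0 passing, and 12 higher and 4 lower on average. Nlrc5, the transactivator of class I genes, had a mean difference of -0.0045 (SE 0.298), made of 1.32 in 37I1, 0.21 in 31D3 and values between -0.73 and -0.40 in the others. Erap1, which trims peptides in the endoplasmic reticulum, was higher by 0.11 to 0.31 in 5 of 5 pairs (mean 0.19, SE 0.0860; adjusted p = 0.838 in limma). A second Erap1 probe set gave a mean difference of 0.12, with 4 of 5 pairs higher, and another, too dim for the limit of 5.15 with its mean of 3.56, gave -0.20. Psme2, a subunit of the proteasome activator that interferon gamma induces, differed by 0.19 on average, with 0.45 in 31D3 and 0.38 in 37I1.

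Differences in 37I1 were also set against the promoter match. Measured interferon-induced members with an ISRE core had a median difference of 0.87 there (13 genes, from 0.03 to 1.89), and those with a window but no core 0.90 (7 genes, from 0.22 to 2.50). The members of class I processing with a core had a median of 0.44 (6 genes, from 0.09 to 0.74), and Psmb9, the one without a core in its window, had 0.25.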

How the data were processed

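Each of the 10 arrays has 1 column of deposited log2 signals, 1 per probe set. Per the submitters' processing notes these are RMA values (Robust Multichip Average). This method subtracts background and brings the arrays to a similar distribution, so that a shift common to most transcripts is largely lost. The array medians still ran between 5.99 and 6.11. That the scale is log2 follows from the range of the values, and for RMA the version is not given in the sources used here. Per the labels, the authors ran a paired Student test in GeneSpring GX 7.3.

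Of 31099 probe sets, 57 controls were left out. Of the rest, 20826 had 1 gene in the platform annotation, 436 several and 9780 none listed. Symbols were updated through RefSeq, build GRCr8. The dimmest 40% by mean signal (limit 5.15) were not tested. limma 3.58.1 (lmFit, eBayes) in R 4.3.3 compared 18625 probe sets with the tumour as a block, adjusted by Benjamini-Hochberg at 0.05. The pairing comes from tumour names that both groups share in the labels, and deviations from group means correlated above 0.1 in 4 of 5 pairs. The exception was 50I1, at -0.21, whose total tumour correlated at 0.29 with biopsy 37I1. Total tumour 31D3 correlated at 0.20 with its own biopsy and at 0.36 with biopsy 50I1. In 32D1, 37I1 and 52I4 the own biopsy correlated highest, at 0.28, 0.34 and 0.34. These values do not bear out the pairing of 50I1 and bear out that of 31D3 only weakly, and the names were followed. The sample labels call the late sample the total tumour and the design text a needle sample, and the sample labels were followed.

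Members and lists were chosen with earlier results of these data known. Shown with all 10 values are the 6 interferon-induced and 3 class I members with the largest differences, the 3 with the smallest p, the 3 with the widest range and 8 named for their role. Of other lists, genes named for their role and up to 2 with the smallest p are given. Motifs were matched exactly on both strands. The fit was tested on simulated data. Figures used matplotlib 3.10.9. Alternatives were other filters, normalizations, summaries and fits, and leaving out each tumour.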

Additional observations from a re-analysis of the deposited data

Results flagged for a closer look

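Within each group of 5, a sample was marked when its gap to the nearest other sample exceeded 0.71 of the range of the group, a rule that chance meets in about 1 in 20 groups. It marked 4 of 66 groups examined, where chance gives 3.3. Ifit2 in total tumour 37I1, at a log2 signal of 9.58, lay above the other total tumours, which were between 8.0 and 8.36. Stat2 in biopsy 32D1, at 10.02, lay above the other biopsies, between 9.16 and 9.32. Bst2 in biopsy 32D1, at 11.44, lay above the others, between 10.76 and 10.93. Parp9 in biopsy 52I4, at 11.30, lay above the others, between 10.47 and 10.56. No cause was tested for any of these.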

How the results depend on the processing

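No member passed an adjusted p under 0.05 in any of the 14 alternatives, and the lowest adjusted p of a member over them was 0.544. At an unadjusted p under 0.05 the count of 1 member was 0 with no replicate block, where the pairing by tumour is ignored, 2 with no filter on signal, 2 with quantile normalization, 5 with median centring, 5 with the trend of eBayes, and 1 to 4 with a tumour left out. The added count for the tumour term, 16, was 7 to 19 with a tumour left out. The median difference was -0.01 to 0.28 for the interferon-induced and 0.15 to 0.27 for the class I members with a tumour left out. Of the counts by pair, that of class I members higher in 50I1 was 5 with median centring, and the other counts by pair stayed within 1.5 times under other scalings. The sign of the mean difference held under every alternative for 16 of 33 members. With a tumour left out, the others ranged from -0.44 to 0.37 for Mx1, -0.028 to 0.35 for Mx2, -0.65 to 0.031 for Irf8, -0.12 to 0.042 for Irf9, -0.067 to 0.24 for Stat2, -0.10 to 0.36 for Ifi44l, -0.059 to 0.070 for Ifi27, -0.14 to 0.16 for Ifih1, -0.028 to 0.40 for Oas1a, -0.093 to 0.33 for Usp18, -0.12 to 0.020 for Bst2, -0.050 to 0.21 for Dhx58, -0.46 to 0.062 for Parp9, -0.41 to 0.060 for Parp14, -0.028 to 0.22 for Eif2ak2, -0.017 to 0.11 for B2m and -0.054 to 0.082 for Tap2. Of these 17, 8 turned without 37I1. Array weights gave -0.092 for Mx1, 0.00562 for Ifi27 and -0.041 for Tap2, and median centring gave 0.023 for Ifi27. The cause was not tested. Ifit3, at 4.72 in total tumour 31D3, was the one member under the limit of 5.15 on an array.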
